A study of Mus musculus with 6 samples.

Results

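The Toll-like receptor genes Tlr1 to Tlr9 and Myd88, the adaptor that most of these receptors share, were examined in ectopic endometriotic lesions of mice with and without Dnmt3a in the implanted endometrium. The 10 genes were taken by name from a table of raw read counts for 56884 genes. All 10 were present and all 10 passed the filter on low counts, which left 18177 genes for testing. Bulk RNA-seq had been performed on 3 control lesions (WT) and 3 knockout lesions (KO), with 1 library per lesion. WT tissue came from floxed donors (Dnmt3a f/f) and KO tissue from floxed donors that also carried Cre under the progesterone receptor gene (Dnmt3a f/f:PR-Cre/+), all of them females of 8 weeks. In both groups the donors had received estradiol, and the recipients were female C57BL/6J mice with an estradiol pellet. The labels give a time of 4 weeks and intraperitoneal injection of the tissue, whereas the methods give collection on day 21 after suturing to the mesentery. Cre acts only in donor cells that express the progesterone receptor, so leukocytes that enter a lesion from the recipient keep Dnmt3a in both groups.

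Toll-like receptors are innate immune sensors of microbial molecules and of molecules released by injured tissue. Those at the cell surface (Tlr1, Tlr2, Tlr4, Tlr5 and Tlr6) bind lipids, lipopolysaccharide or flagellin, and those in endosomes (Tlr3, Tlr7, Tlr8 and Tlr9) bind nucleic acids. Myd88 joins activated receptors to the IRAK kinases and to NF-kB, except at Tlr3, which signals through the adaptor Ticam1 (TRIF). Macrophages, neutrophils and dendritic cells carry many of these receptors, and endometrial epithelium and stroma also express some.

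Dnmt3a places methyl groups on cytosines that precede guanines (CpG). DNA methylation was not measured here, so the CpG content of the start regions is background only. Promoter windows from 250 bases before to 50 bases after the transcript start were taken from RefSeq on GRCm38.p6, where 8 of the 10 members were found. The windows of 4 members are shown, read 5′ to 3′ along the gene, with every CpG in capitals. They are Tlr2 (chr3:83841559-83841858, minus strand), whose groups did not overlap, Tlr3 (chr8:45410331-45410630, minus strand), the member with the opposite direction, Tlr9 (chr9:106222348-106222647, plus strand), itself a receptor for DNA with unmethylated CpG, and the adaptor Myd88 (chr9:119339969-119340268, minus strand).
Tlr2: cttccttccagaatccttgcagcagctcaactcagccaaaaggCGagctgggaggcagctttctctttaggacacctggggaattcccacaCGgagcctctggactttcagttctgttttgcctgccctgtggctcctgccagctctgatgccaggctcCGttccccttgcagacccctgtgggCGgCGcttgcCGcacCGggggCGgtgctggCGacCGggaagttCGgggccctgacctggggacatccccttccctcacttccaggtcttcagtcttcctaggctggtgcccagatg
Tlr3: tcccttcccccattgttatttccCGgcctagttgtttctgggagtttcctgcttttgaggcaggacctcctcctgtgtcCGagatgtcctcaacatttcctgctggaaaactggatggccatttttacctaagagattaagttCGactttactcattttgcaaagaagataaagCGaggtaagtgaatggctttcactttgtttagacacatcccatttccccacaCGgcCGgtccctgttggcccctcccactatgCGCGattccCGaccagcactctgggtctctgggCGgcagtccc
Tlr9: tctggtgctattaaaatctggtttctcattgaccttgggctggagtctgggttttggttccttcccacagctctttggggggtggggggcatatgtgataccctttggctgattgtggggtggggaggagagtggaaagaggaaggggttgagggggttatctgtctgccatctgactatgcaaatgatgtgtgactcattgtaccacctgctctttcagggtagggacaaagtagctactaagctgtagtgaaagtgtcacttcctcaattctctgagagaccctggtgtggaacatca
Myd88: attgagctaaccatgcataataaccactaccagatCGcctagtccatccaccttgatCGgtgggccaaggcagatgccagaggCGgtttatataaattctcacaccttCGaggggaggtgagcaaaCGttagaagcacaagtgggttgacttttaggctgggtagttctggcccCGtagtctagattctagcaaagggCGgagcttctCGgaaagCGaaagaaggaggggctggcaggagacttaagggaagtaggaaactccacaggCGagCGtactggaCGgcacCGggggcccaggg
The window of Myd88 held 13 CpG, that of Tlr2 held 11 and that of Tlr3 held 10, while that of Tlr9 held 0. Over all 32851 windows of this length the median was 7 and the upper quartile 20. Of all windows, 37.9% held as many CpG as Myd88 or more, 41.4% as many as Tlr2 and 43.5% as many as Tlr3. Tlr5 had 8 CpG and Tlr8 had 1. The letters GAGGAA, a core bound by ETS factors such as PU.1, were found on either strand in the windows of Tlr8 and Tlr9, in 1 of the 2 windows of Tlr1 and in 28.3% of all windows.

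Libraries held 45370342 to 57239184 counts. Dnmt3a was at 43.9 to 52.7 CPM (TMM-scaled read counts, relative to library size) in WT lesions and at 30.3 to 36.2 CPM in KO lesions, so the groups did not overlap and transcript remained in KO lesions (log2 fold change -0.57 ± 0.14, SE, adjusted p = 0.321, edgeR). The endometrial markers Epcam (211 to 468 CPM) and Hoxa10 (20.0 to 52.8 CPM) were present in every library, whereas the gland factor Foxa2 was at 0 to 2.62 CPM. WT replicate 2 stood apart in its leukocyte markers. There the 8 neutrophil markers summed to 1210 CPM, against 32.3 to 78.8 CPM in the other 5 lesions, and the 10 macrophage and monocyte markers to 2968 CPM, against 588 to 1488 CPM. Skeletal muscle markers summed to 26671 and 28575 CPM in WT replicates 1 and 3 and to 4.07 to 15.5 CPM in the other 4 lesions. In bulk tissue, fewer cells of a type and less RNA per cell cannot be told apart. Values are listed in the order of replicates 1, 2 and 3 throughout.

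None of the 10 genes passed the test between KO and WT lesions. With edgeR's quasi-likelihood test and Benjamini-Hochberg adjustment, 0 of 10 had an adjusted p-value under 0.05, where 0.0055% of all genes did. At an unadjusted p-value under 0.05 edgeR also gave 0 of 10, against 14.7% of all genes. DESeq2's Wald test gave 0 of 10 after adjustment and 2 of 10 before it (Tlr2 and Tlr6), against 12.7% of all genes. Both were also past the fold limit of -1 on the log2 scale, as were 6.17% of all genes with this test. In direction, 9 of 10 members had a log2 fold change below 0, against 48.6% of all genes, and the median over the members was -0.66, against 0.01 over all genes. WT replicate 2 was the highest of the 6 lesions for these same 9 genes, while it was the highest lesion for 24.2% of all genes. Without WT replicate 2 the members' median was -0.11 and 7 of 10 were below 0, against 45.7% of all genes, and 0 of 10 had an unadjusted p-value under 0.05, against 13.9%.

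**Figure D1:**
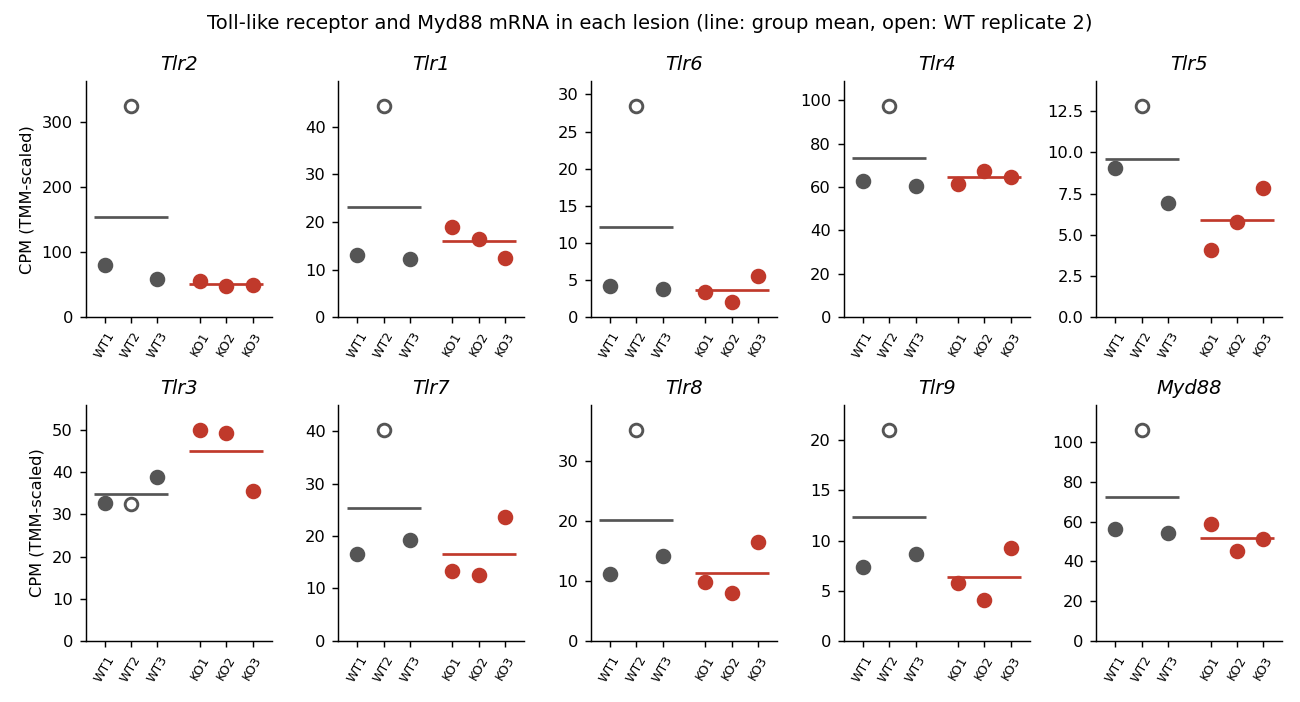
CPM of each member in the 3 WT lesions (grey, WT replicate 2 open) and the 3 KO lesions (red), on linear axes from 0, with a line at each group mean. WT replicate 2 is the highest lesion in 9 panels and the lowest in that of Tlr3, and the groups are separate in the panel of Tlr2 alone.

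Tlr2, which pairs with Tlr1 or Tlr6 to bind bacterial lipopeptides, was at 79.7, 324 and 58.5 CPM across the WT lesions, against 55.7, 48.6 and 49.3 CPM across the KO lesions. Each WT lesion exceeded each KO lesion, by a small margin between WT replicate 3 and KO replicate 1 (p = 0.1 in an exact permutation test, two-sided, which 3 lesions against 3 cannot go below). Tlr2 was the only member whose groups did not overlap (1 of 10), where 19.4% of all genes did not, and with upper quartile scaling its groups overlapped too. On the log2 scale KO over WT was -1.59 ± 0.66 (SE, adjusted p = 0.342, edgeR). Much of this value rested on WT replicate 2, without which it was -0.43 ± 0.17 (adjusted p = 0.362).

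Tlr1, a partner of Tlr2 for triacylated lipopeptides, was at 13.1, 44.3 and 12.3 CPM across the WT lesions, against 18.9, 16.4 and 12.5 CPM across the KO lesions. KO replicates 1 and 2 exceeded WT replicates 1 and 3. Its log2 fold change was -0.54 ± 0.54 (SE, adjusted p = 0.634, edgeR), and the sign turned without WT replicate 2, to 0.33 ± 0.22 (adjusted p = 0.537). Tlr6, the partner for diacylated lipopeptides, was at 4.18, 28.4 and 3.80 CPM across the WT lesions, against 3.46, 2.09 and 5.50 CPM across the KO lesions. WT replicate 2 was at 7.11 times the mean of the other WT lesions, the largest such ratio of the 10 members, and KO replicate 3 exceeded WT replicates 1 and 3. For Tlr6 edgeR gave -1.72 ± 0.90 on the log2 scale (SE, adjusted p = 0.392), and -0.12 ± 0.45 (adjusted p = 0.922) without WT replicate 2. Tlr1 and Tlr6 are close paralogs. Of the 50-base runs in their annotated transcripts, 13.6% of those of Tlr1 and 12.3% of those of Tlr6 occurred in the other gene, and no other pair of members shared any, so the split of reads between Tlr1 and Tlr6 is uncertain.

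Tlr4, the lipopolysaccharide receptor, was at 62.8, 97.2 and 60.7 CPM across the WT lesions, against 61.2, 67.5 and 64.7 CPM across the KO lesions. The 5 lesions other than WT replicate 2 lay between 60.7 and 67.5 CPM, a ratio of 1.11 from highest to lowest, the smallest of the 10 members. KO over WT was -0.19 ± 0.21 (log2, SE, adjusted p = 0.663, edgeR) and turned to 0.06 ± 0.11 (adjusted p = 0.815) without WT replicate 2. Tlr5, the flagellin receptor, was at 9.03, 12.8 and 6.96 CPM across the WT lesions, against 4.07, 5.76 and 7.86 CPM across the KO lesions. Of the KO lesions, replicate 3 alone reached into the WT range, above WT replicate 3. Its log2 fold change was -0.70 ± 0.34 (SE, adjusted p = 0.371, edgeR), and -0.44 ± 0.34 (adjusted p = 0.589) without WT replicate 2.

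Among the endosomal receptors, Tlr3, which binds double-stranded RNA, was the member with a log2 fold change above 0. It was at 32.8, 32.5 and 38.9 CPM across the WT lesions, against 50, 49.4 and 35.5 CPM across the KO lesions. KO replicates 1 and 2 exceeded all WT lesions, and KO replicate 3 lay among them. The value was 0.37 ± 0.18 (log2, SE, adjusted p = 0.370, edgeR), and 0.33 ± 0.20 (adjusted p = 0.513) without WT replicate 2. In the annotation the exons of Tlr3 share 381 bases with the antisense gene Gm45542, which was at 0 to 0.0427 CPM.

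Tlr7 and Tlr8, neighbouring genes on the X chromosome that encode receptors for single-stranded RNA, and Tlr9, the receptor for DNA with unmethylated CpG, ordered the lesions alike. Tlr7 was at 16.5, 40.2 and 19.2 CPM across the WT lesions, against 13.4, 12.5 and 23.7 CPM across the KO lesions. Tlr8 was at 11.1, 35.1 and 14.1 CPM across the WT lesions, against 9.75, 8.01 and 16.4 CPM across the KO lesions. Tlr9 was at 7.39, 21 and 8.65 CPM across the WT lesions, against 5.75, 4.05 and 9.21 CPM across the KO lesions. In each of the 3 genes WT replicate 2 was highest, KO replicate 3 came next, and KO replicates 1 and 2 were lowest. Log2 fold changes were -0.61 ± 0.43 for Tlr7, -0.82 ± 0.51 for Tlr8 and -0.96 ± 0.51 for Tlr9 (SE), with adjusted p-values from edgeR of 0.499, 0.454 and 0.397. Without WT replicate 2 they were -0.11 ± 0.33, -0.14 ± 0.35 and -0.34 ± 0.39.

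Myd88 was at 56.5, 106 and 54.1 CPM across the WT lesions, against 58.6, 45.2 and 51.3 CPM across the KO lesions. KO replicate 1 exceeded WT replicates 1 and 3, so the groups overlapped. edgeR gave -0.48 ± 0.29 on the log2 scale (SE, adjusted p = 0.444), and -0.10 ± 0.15 (adjusted p = 0.788) without WT replicate 2. Exons of Myd88 share 290 bases with the antisense gene Acaa1a, an enzyme of peroxisomal fatty acid oxidation at 48.1 to 60.8 CPM. The strand setting of the counting is not given in the sources used here, so reads from this stretch may belong to either gene.

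**Figure D2:**
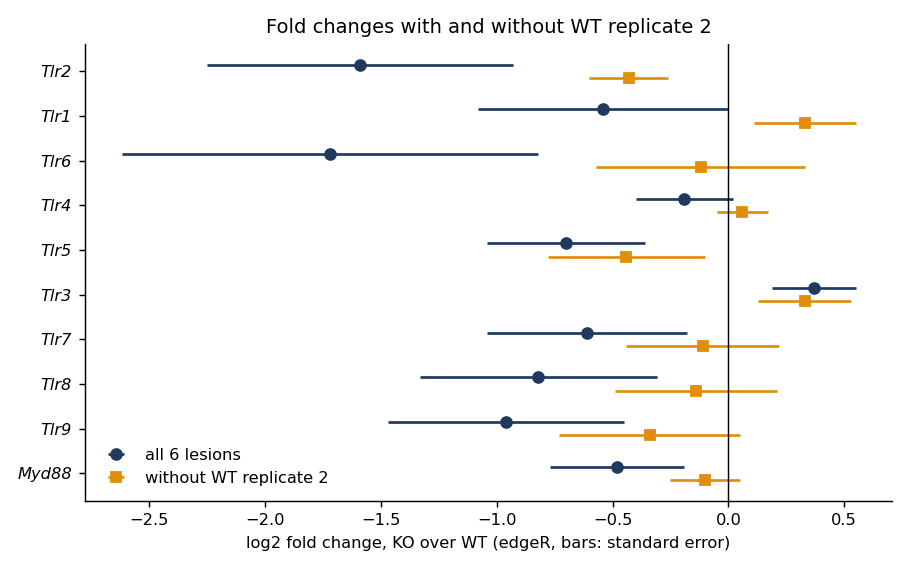
Log2 fold changes of KO over WT lesions from edgeR with their standard errors, from all 6 lesions (dark blue circles) and without WT replicate 2 (orange squares). Without that lesion the 10 values lie between -0.44 and 0.33, Tlr1 and Tlr4 move to the right of 0, and Tlr3 stays there.

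Separation of the groups also depended on KO replicate 3, the highest KO lesion for Tlr5, Tlr6, Tlr7, Tlr8 and Tlr9. Without it the groups of 7 of 10 members did not overlap (Tlr2, Tlr5, Tlr6, Tlr7, Tlr8 and Tlr9 lower in KO, Tlr3 higher), where 47.8% of all genes did not. Leaving out WT replicate 3 separated 3 members (29.7% of all genes) and leaving out KO replicate 1 separated 2 (24.6%). Leaving out WT replicate 1, WT replicate 2 or KO replicate 2 separated Tlr2 alone, where 27.6%, 33.2% and 24.1% of all genes were separate. KO replicate 2 was the lowest of the 6 lesions for 6 members, a count for which no share over all genes was taken. That lesion was also lowest for the summed macrophage and monocyte, neutrophil, B-cell and T-cell markers, but not for those of endometrial epithelium. Markers of endometrial stroma summed to 3910, 2654 and 8830 CPM in the KO lesions, a sum carried by the collagen genes Col1a1 (1316, 720.0 and 3446 CPM) and Col3a1 (1718, 1097 and 4611 CPM). Of the other genes of that list, Pdgfra (142, 104 and 321 CPM) had the same order. Pgr (255, 240.0 and 151 CPM) and Esr1 (387, 445 and 226 CPM) were instead lowest in KO replicate 3. Hoxa10 and Hoxa11 were highest in KO replicate 1. Markers of endometrial epithelium summed to 2917, 2703 and 1494 CPM. The part of these genes' cells in the separations was not tested.

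Levels were compared between genes per length of exon. In KO lesions Myd88 had 20.1 ± 2.60 CPM per kilobase (SD, n = 3) and Tlr2 17.0 ± 1.30, and their ranges overlapped. Tlr4 followed at 11.6 ± 0.569, Tlr3 at 8.63 ± 1.58 and Tlr1 at 4.76 ± 0.973 CPM per kilobase, and from Tlr2 down to Tlr1 no range overlapped that of its neighbour. Below them came Tlr7 (4.05 ± 1.52), Tlr8 (3.18 ± 1.24), Tlr9 (1.82 ± 0.756), Tlr5 (1.23 ± 0.396) and Tlr6 (0.988 ± 0.461), where each range overlapped that of its neighbour, as did those of Tlr1 and Tlr7. In WT lesions Tlr2 was at 51.1 ± 48.9, Myd88 at 28.1 ± 11.4 and Tlr4 at 13.2 ± 3.69 CPM per kilobase (SD, n = 3). By the WT mean, Tlr1 (6.94 ± 5.46) came before Tlr3 (6.67 ± 0.693).

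**Figure D3:**
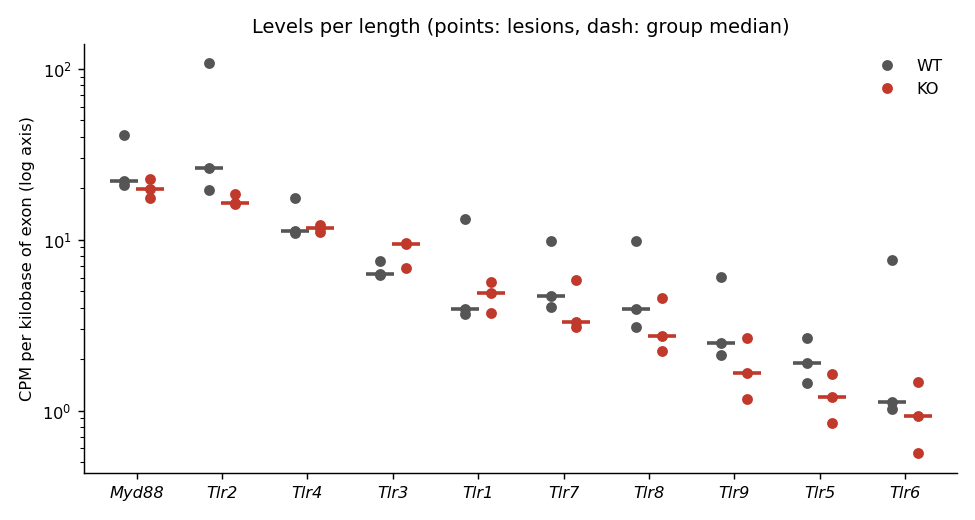
Level of each member in CPM per kilobase of exon on a log axis, with a point for each lesion and a dash at the group median, WT grey and KO red, ordered by the KO mean. Myd88 and Tlr2 are highest, at 16.1 to 22.7 CPM per kilobase in KO lesions, and Tlr6 is lowest, at 0.56 to 1.48.

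Members were set against the macrophage and monocyte markers, which summed to 1284, 2968 and 1271 CPM in WT replicates 1 to 3 and to 817, 588 and 1488 CPM in KO replicates 1 to 3. As a percentage of this sum, Tlr9 was at 0.575, 0.707 and 0.680 in WT lesions and at 0.704, 0.689 and 0.619 in KO lesions. The ratio of Tlr9 thus varied 1.23-fold from lowest to highest lesion, against 5.18-fold for its CPM, and that of Tlr8 varied 1.58-fold, against 4.39-fold. Tlr7 was at 1.28, 1.35 and 1.51 percent in WT lesions and at 1.64, 2.13 and 1.59 percent in KO lesions. On this scale the KO lesions of Tlr7 lay above its WT lesions, and the groups did not overlap for 15.9% of all genes. Tlr3 and Tlr4 differed from these receptors, since their ratios varied 7.68-fold and 3.50-fold, more than their own CPM did. Like Tlr7 and Tlr8, they had their highest ratio in KO replicate 2, the lesion with the lowest marker sum (588 CPM). Tlr2 and Tlr6 had their highest ratios in WT replicate 2, at 10.9 and 0.956 percent, against at most 8.26 and 0.423 percent elsewhere.

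Further leukocyte markers moved with WT replicate 2. All 8 neutrophil markers were highest there, and Csf3r, the receptor for granulocyte colony-stimulating factor, was at 34.9, 645 and 20.1 CPM across the WT lesions, against 9.95, 4.33 and 26.7 CPM across the KO lesions. B-cell markers summed to 83.7 CPM in that lesion and to 7.63 to 15.6 CPM in the others, and T-cell markers to 91.7 CPM against 7.11 to 35.6 CPM. Markers of conventional dendritic cells summed to 28.5 CPM there and to 12.0 to 23.9 CPM elsewhere, but only 3 of the 6 genes were highest there. Of the list for plasmacytoid dendritic cells, which express Tlr7 and Tlr9, Siglech was at 1.11 to 4.70 CPM and its groups overlapped. Ccr9 was at 1.71, 3.87 and 1.41 CPM in WT lesions, against 0.632, 0.358 and 0.792 CPM in KO lesions. Pacsin1 was at 0.316 to 4.61 CPM and highest in KO replicate 2. The plasmacytoid list summed to 135, 11.8 and 234 CPM in WT lesions and to 7.58, 16.6 and 5.29 CPM in KO lesions. The sums of WT replicates 1 and 3 were carried by Cox6a2, at 128 and 93.3 CPM, and in WT replicate 3 also by Klk1, at 137 CPM. WT replicates 1 and 3 were also the lesions with high skeletal muscle markers. Which cells gave the Cox6a2 reads was not tested. The part of any of these cells in the members' values was not tested.

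**Figure D4:**
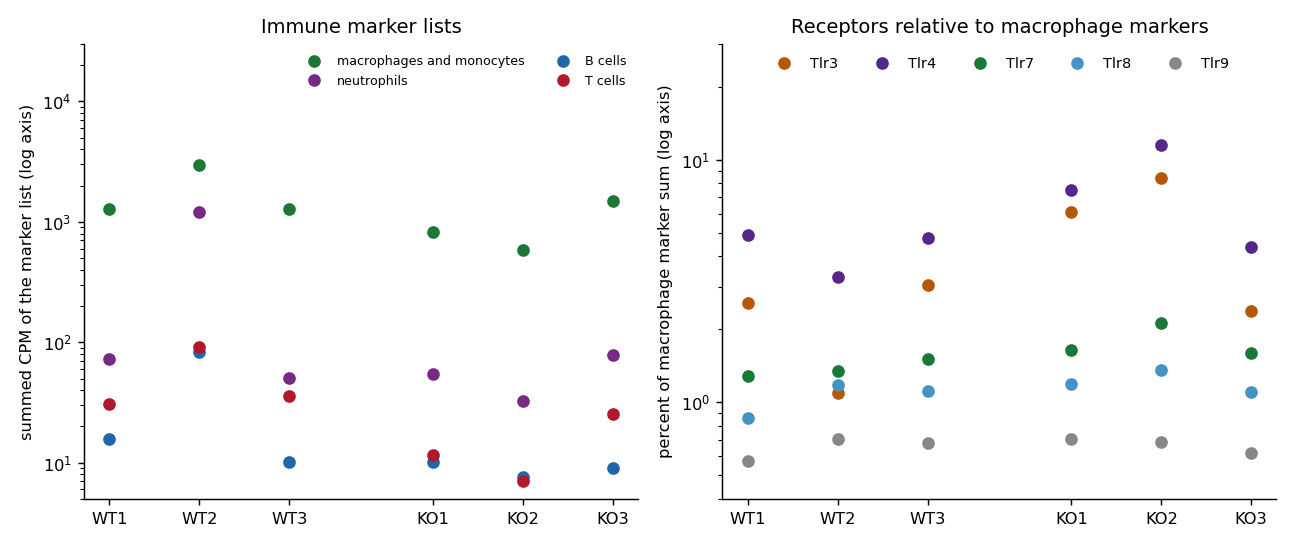
Left, summed CPM of 4 immune marker lists in each lesion on a log axis, each highest in WT replicate 2. Right, CPM of 5 receptors as a percentage of the summed macrophage and monocyte markers in each lesion on a log axis, where Tlr9 stays between 0.575 and 0.707 percent and Tlr3 ranges from 1.09 to 8.40 percent.

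The genes with the most similar profile were found by the root mean square difference of centred log2 CPM over the 6 lesions, among 15036 genes. Nearest to Tlr8 was the macrophage receptor Adgre1 (F4/80), with a difference of 0.08. AI413582 (0.10) and Lyz2, the lysozyme of myeloid cells (0.11), came next. For Tlr9 the 3 nearest were the C-type lectin gene Clec4a3 (0.05), Nrarp (0.07) and 5031425F14Rik (0.07). For Tlr7 they were AI413582 (0.08), Plin2 (0.09) and Sh3bp5 (0.09). For Tlr6 the 3 nearest were Hmox1, which encodes the inducible heme oxygenase (0.14), Tlr13 (0.16) and Slc11a1, a phagosomal metal transporter of macrophages (0.16). For Tlr2 they were Slc25a37, a mitochondrial iron importer, Dennd3 and Dedd2 (0.12 to 0.14). Tlr3 was nearest to Lrrc42, Ostc and Ints3 (0.03 to 0.04), Tlr4 to Dvl2, Hgsnat and Hbp1 (0.04 to 0.05), and Myd88 to Fbrs, Lbr and Impa2 (0.05 to 0.07). Tlr1 was nearest to Dgkg, Adgre5 and Cklf (0.10 to 0.15) and Tlr5 to Zhx2, Ly75 and Rftn1 (0.10 to 0.11). Among the members themselves, Tlr8 and Tlr9 differed by 0.12, Tlr7 and Tlr8 by 0.14, and Tlr4 and Myd88 by 0.22.

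The remaining mouse receptors did not pass the test either. Tlr13, a receptor for bacterial ribosomal RNA, was at 28.3, 214 and 24.0 CPM across the WT lesions, against 25.1, 18.1 and 34.8 CPM across the KO lesions. WT replicate 2 again stood above the other lesions, and KO over WT was -1.77 ± 0.91 on the log2 scale (SE, adjusted p = 0.387, edgeR) and -0.01 without that lesion. DESeq2 gave Tlr13 no p-value. Tlr11 and Tlr12, receptors for a profilin of protozoa, were at 0.199 to 1.05 CPM and 0.583 to 1.79 CPM.

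The other genes of the pathway were taken as 8 lists by role, 61 genes in all, of which 60 were tested. With edgeR, 0 of 60 had an adjusted p-value under 0.05. At an unadjusted p-value under 0.05, 17 were lower in KO lesions, against 8.16% of all genes, and 0 were higher, against 6.55%. Of the 17, 15 also passed the fold limit of the study, a log2 fold change below -1, against 5.85% of all genes, and 0 passed it above 1, against 3.1%. DESeq2 gave 10 of the pathway genes an adjusted p-value under 0.05, all lower, where 3.8% of all genes were lower, and 0 higher, against 1.51%. It left 7 tested genes without an adjusted p-value. Without WT replicate 2, 10 pathway genes were lower at an unadjusted p-value under 0.05 (9.64% of all genes) and 6 of them also past the fold limit (5.86%), while 1 was higher, the receptor chaperone gene Cnpy3 (4.21% of all genes). Leaving out KO replicate 1 or KO replicate 2 gave 5 past both limits in each case, and the share of all genes was then also smaller, at 2.9% and 3.48%. The median log2 fold change of the 60 genes was -0.51, and -0.27 without WT replicate 2. Of the genes below, Ly96, Unc93b1, Ticam1 and Ifnb1, and Cnpy3 above, were chosen after their values were seen.

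Cd14, which delivers lipopolysaccharide to Tlr4, was at 419, 1476 and 870 CPM across the WT lesions, against 153, 113 and 213 CPM across the KO lesions. Each WT lesion was well above each KO lesion. KO over WT was -2.53 ± 0.52 on the log2 scale (SE, adjusted p = 0.321 from edgeR and 0.000127 from DESeq2), and -2.02 ± 0.41 without WT replicate 2. Ly96 (MD-2), the other partner of Tlr4, was at 8.37, 15.5 and 9.42 CPM across the WT lesions, against 11.8, 10.8 and 9.96 CPM across the KO lesions. Unc93b1, the chaperone of the endosomal receptors, was at 117, 234 and 102 CPM across the WT lesions, against 92.8, 66.6 and 127 CPM across the KO lesions. Both overlapped between the groups, and of the 9 tested co-receptors and chaperones 6 were below 0 and Cd14 alone passed the unadjusted threshold. Of the 5 other adaptors none did, and Ticam1, through which Tlr3 signals, was at 19.2, 23.5 and 20.4 CPM across the WT lesions, against 25.5, 24.6 and 19.0 CPM across the KO lesions.

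Of the 12 kinases and ubiquitin ligases, 3 were lower in KO lesions at an unadjusted p-value under 0.05 from edgeR, against 8.16% of all genes. Groups of these 3 genes, picked by p-value, did not overlap, where 19.4% of all genes did not in either direction. Tab2, which binds ubiquitin chains for the kinase TAK1, was at 133, 148 and 148 CPM across the WT lesions, against 107, 106 and 105 CPM across the KO lesions. Traf3, a ubiquitin ligase on the branch to interferon, was at 62.7, 65.9 and 52.3 CPM across the WT lesions, against 43.8, 38.4 and 45.9 CPM across the KO lesions. These 2 differences were small and even, at -0.43 ± 0.11 for Tab2 (log2, SE, adjusted p = 0.321 from edgeR and 0.0325 from DESeq2) and -0.50 ± 0.14 for Traf3 (adjusted p = 0.321 and 0.128), and they were -0.41 ± 0.11 and -0.43 ± 0.15 without WT replicate 2. Ikbke, a kinase of interferon regulatory factors, was at 40.7, 123 and 56.9 CPM across the WT lesions, against 27.8, 24.9 and 31.3 CPM across the KO lesions. Its log2 fold change was -1.39 ± 0.42 (SE, adjusted p = 0.323 from edgeR and 0.0488 from DESeq2), and -0.80 ± 0.20 without that lesion.

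Among 7 transcription factors, Irf7, which drives type I interferon genes behind Tlr7 and Tlr9, was at 124, 213 and 89.8 CPM across the WT lesions, against 51.2, 40.4 and 50.6 CPM across the KO lesions. The lowest WT lesion was above the highest KO lesion. KO over WT was -1.59 ± 0.33 (log2, SE, adjusted p = 0.321 from edgeR and 0.00248 from DESeq2), and -1.17 ± 0.19 without WT replicate 2 (adjusted p = 0.0672). Ifnb1, an interferon gene of the target list, had 0 counts in all 6 lesions. Of 8 inhibitors of the pathway, 3 were below -1 at an unadjusted p-value under 0.05, against 5.85% of all genes. Tnfaip3 (A20), a ubiquitin-editing enzyme, was at 47.0, 492 and 68.1 CPM across the WT lesions, against 15.1, 11.8 and 30.7 CPM across the KO lesions. WT replicate 2 was far above the rest, and the log2 fold change of -3.40 ± 1.04 (SE, adjusted p = 0.325 from edgeR and 0.00518 from DESeq2) was -1.58 ± 0.45 without it. For Irak3, an inhibitory IRAK of macrophages, the change was from -2.40 ± 0.93 to -0.69 ± 0.37, and for Nfkbia (IkB alpha) from -1.96 ± 0.76 to -0.55 ± 0.12.

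The genes with the widest ranges were among the endogenous ligands and induced targets. Of the 7 ligands, 5 were below 0 and 2 above. Past both limits were 3 of them (5.85% of all genes), and 0 without WT replicate 2 (5.86%). S100a8 and S100a9, the calprotectin subunits of neutrophils and ligands of Tlr4, reached 3406 and 5263 CPM in WT replicate 2. S100a8 was at 169 and 67.4 CPM in the other WT lesions and at 12.8, 2.74 and 49.0 CPM in the KO lesions, so its groups did not overlap. edgeR gave S100a8 -5.82 ± 1.98 on the log2 scale (SE, adjusted p = 0.328), and -2.45 ± 1.14 (adjusted p = 0.418) without WT replicate 2. Saa3, an acute-phase protein, was at 574, 4651 and 265 CPM across the WT lesions, against 33.5, 31.0 and 310 CPM across the KO lesions, with KO replicate 3 above WT replicate 3. All 9 tested target genes were highest in WT replicate 2, against 24.2% of all genes. Of the 9, 6 were below -1 at an unadjusted p-value under 0.05 (5.85% of all genes), against 3 without that lesion (5.86%).

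Il12b, a subunit of interleukin-12, was at 0.897, 1.17 and 1.05 CPM across the WT lesions, against 0.175, 0.238 and 0.292 CPM across the KO lesions, which is 10 to 52 counts per lesion. The values lay close together within each group, and KO over WT was -2.13 ± 0.34 (log2, SE, adjusted p = 0.321 from edgeR and 0.000307 from DESeq2). Ccl5, a chemokine for T cells and monocytes, was at 8.52, 15.4 and 8.80 CPM across the WT lesions, against 2.88, 1.07 and 3.75 CPM across the KO lesions. Cxcl10, a chemokine induced by interferon, was at 11.7, 46.1 and 12.0 CPM across the WT lesions, against 2.49, 1.55 and 6.21 CPM across the KO lesions. Neither overlapped between the groups, at -2.09 ± 0.52 for Ccl5 and -2.77 ± 0.80 for Cxcl10 (log2, SE), with adjusted p-values of 0.321 and 0.321 from edgeR and 0.005 and 0.00758 from DESeq2. Without WT replicate 2 the values were -1.75 ± 0.53 and -1.79 ± 0.60.

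**Figure D5:**
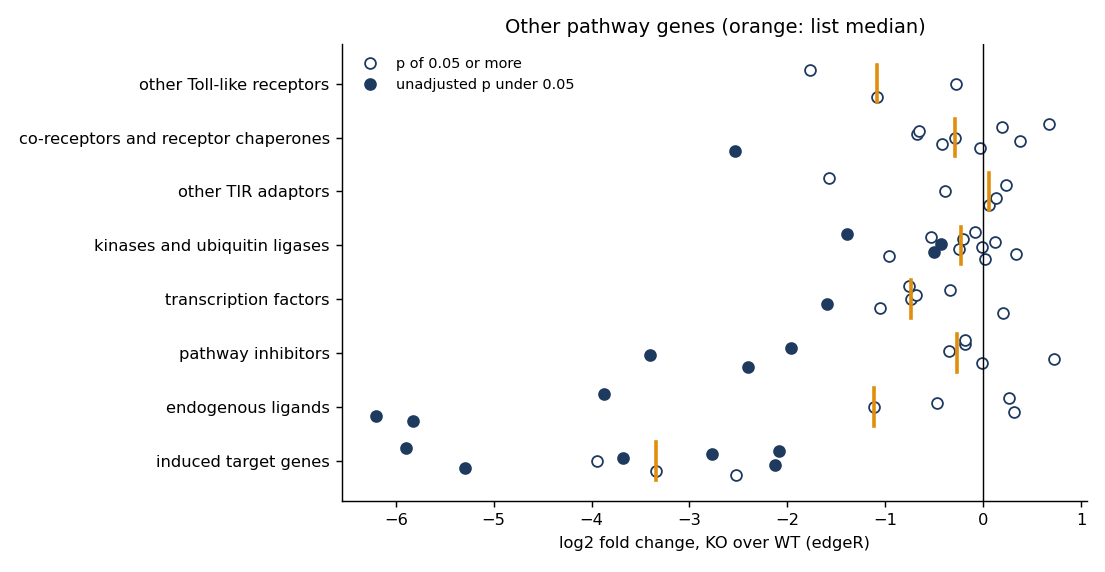
Log2 fold changes of KO over WT lesions from edgeR for the 60 tested pathway genes in 8 lists by role, with filled circles for an unadjusted p-value under 0.05 and orange bars at list medians. Induced target genes have a median of -3.34, and the other adaptors lie around 0, with a median of 0.06.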

How the data were processed

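RNA-seq read counts per gene from 6 whole lesions (3 WT, 3 KO) were used as the authors deposited them. Per the methods and the submitters' processing notes, stranded mRNA libraries were trimmed with Trimmomatic and counted with featureCounts on Galaxy. The methods name GRCm38 and the notes GRCm39, so no coordinates of counted genes are given, and the annotation release and the strand setting are not given in the sources used here. Symbols were matched by Ensembl ID without version to GENCODE M21 (51948 of 56884 IDs), which also gave exon lengths.

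Counts were filtered with filterByExpr, scaled by TMM and tested with edgeR 4.0.16 (R 4.3.3), KO against WT, with Benjamini-Hochberg adjustment over 18177 genes. Standard errors (SE) were derived from the fold change and its F statistic. The procedure was tested on simulated data. DESeq2 1.42.0, upper quartile scaling, DESeq2 size factors, no filter, at least 10 counts in every lesion, a replicate block and leaving out each lesion were the alternatives. The common biological coefficient of variation was 44.2%.

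All 10 members and the 3 other Toll-like receptors were named. Of each pathway list, up to 3 genes with the smallest unadjusted p-value under 0.05 were named, and for each member its 3 nearest profiles. Members and lists were chosen with earlier results of these data known. The methods state 3 donors per group, and p-values measure the spread between these lesions.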

Additional observations from a re-analysis of the deposited data

How the results depend on the processing

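Over the alternatives run, 0 of 10 members had an adjusted p-value under 0.05. At the threshold of the study (log2 fold change below -1 and unadjusted p-value under 0.05), 0 members were counted with edgeR, 1 with no filter beyond 1 count and 2 with DESeq2, and 0 to 1 when single lesions were left out. For pathway genes, the count at an adjusted p-value under 0.05 went from 0 to 10 with DESeq2, and the count past both limits ranged from 5 to 19 around 15 when single lesions were left out, where the share of all genes ranged from 2.9% to 8.66% around 5.85%. With the replicate number as a block that count was 7 (3.15% of all genes). Same-numbered lesions did not deviate together (correlations of 0.0318, -0.152 and -0.201). With 3 lesions per group this cannot show whether they shared a batch. The block moved the genes at an unadjusted p-value under 0.05 from 2674 to 1400. Groups of 1 member did not overlap, of 0 with upper quartile scaling, and of 1 to 7 when single lesions were left out. Upper quartile scaling moved the median over all genes to 0.11. The sign turned for Tlr1 (0.33) and Tlr4 (0.06) without WT replicate 2 and for Tlr12 (0.04) without KO replicate 3, with ranges over single lesions left out from -0.88 to 0.33, -0.34 to 0.06 and -0.75 to 0.04. The causes were not tested. Of the other values for single genes, 309 kept their direction and their side of the threshold and 9 passed it with DESeq2 alone.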
